A study of Mus musculus with 15 samples.

Results

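Regulatory DNA of the genes for the epidermal growth factor (EGF) family of ligands, the neuregulins and their ERBB receptors was described in mouse pancreatic islets, from open chromatin mapped by ATAC-seq, a method that uses the Tn5 transposase to insert adapters into accessible DNA. A peak was a member if the authors' deposited tables gave its gene symbol as Areg, Btc, Egf, Ereg, Epgn, Hbegf, Tgfa, Egfr, Erbb2, Erbb3, Erbb4, Nrg1, Nrg2, Nrg3 or Nrg4. This gave 18 peaks at 9 of the 15 genes. Of these, 9 peaks at 6 genes were listed in all 4 tables, and the tables of genotype before surgery (7826 peaks) and of controls before and after surgery (8070 peaks) listed no others. The tables with KO-labelled islets taken after surgery listed all 18, among 13111 peaks (genotype after surgery) and 12767 peaks (KO-labelled islets before and after surgery). No peak was listed under Ereg, Epgn, Tgfa, Erbb2, Nrg1 or Nrg4, and a listed peak had been called in at least 2 libraries of its comparison.

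The libraries came from islets of male mice aged 3 months, each from 40000 islet cells. All mice carried floxed Arid1a alleles and drank water with doxycycline at 1 g/L. The Arid1a protein belongs to SWI/SNF, a complex that moves nucleosomes. Controls were Arid1aFl/Fl; MIP-rtTA, in which the mouse insulin promoter drives a doxycycline-dependent activator. KO-labelled mice were Arid1aFl/Fl; MIP-rtTA; TRE-Cre, and Cre is then made under doxycycline in cells with an active insulin promoter, while other islet cells keep Arid1a. There were 4 control and 3 KO-labelled libraries from baseline, and 4 control and 4 KO-labelled libraries from islets taken 6 days after partial pancreatectomy (PPx). PPx removes part of the pancreas, and beta cells of the remnant then proliferate.

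Ligands of the EGF family are made as membrane proteins, are shed by ADAM proteases and bind ERBB receptor tyrosine kinases, which pair up on ligand binding. EGF, amphiregulin (Areg), betacellulin (Btc) and heparin-binding EGF (Hbegf) bind EGFR, and betacellulin and heparin-binding EGF also bind ERBB4. Neuregulins bind ERBB3 or ERBB4. Activated receptors signal through RAS and the MAP kinases and through PI3 kinase, and this pathway is known as a stimulus of beta cell proliferation.

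Marker genes of islet and other cell types were looked up, as was a peak at the Arid1a gene. Counts of markers with a listed peak depend on how many peaks a table lists, so they do not check the tissue. In the table of genotype after PPx, 5 of 8 beta cell markers, 3 of 5 alpha, 2 of 4 delta and PP, 1 of 5 ductal, 3 of 5 endothelial, 2 of 5 stellate and fibroblast and 2 of 5 leukocyte markers had a listed peak, and 0 of 5 acinar and 0 of 4 Schwann cell markers had one. The 6 endothelial peaks of that table had log2 folds from -0.54 to 0.41, all below the median of 0.61 over its peaks, as were the 2 ductal peaks (0.19 to 0.34). Median folds were 0.40 for alpha, 0.53 for delta and PP, and 0.49 for stellate and fibroblast markers. They were 0.68 for beta and 0.675 for leukocyte markers. The part of other cell types in the member values was not tested. In bulk islets, a change in the share of cells of a type and a change of accessibility per cell cannot be told apart. A single Arid1a peak, in exon 9 of 20, was higher in the group labelled KO, by 4.28 log2 units before PPx (SE implied by the deposited p 0.83, FDR 0.00187) and by 3.64 after it (FDR 0.00201, SE 0.69) in the authors' deposited tables. The labels do not give the floxed exon, so the peak does not check them, and these groups are called KO-labelled.

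Levels are deposited group means of normalised reads per peak of 601 bp, on a log2 scale, so they can be set side by side between peaks of a table. The level of a group at a peak differs from table to table, so levels are read within a table only. Folds are log2 differences, turned so that a positive value is higher in KO-labelled islets or higher after PPx. The tables hold no values per library, so the spread around a group mean is not analysed here. The error given for a fold is the standard error (SE) implied by the table, that is, the size of the fold over the normal quantile that its deposited p stands for (two-sided). A fold was called at the authors' FDR of 0.05 or below. Nothing in the labels ties the mice to litters or batches.

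Upstream DNA of the peaks that the results turn on is shown first. Each stretch is the 250 bases before a RefSeq start (GRCm38.p6, the same assembly as mm10), written 5′ to 3′ on the strand of the gene. Capitals mark matches on either strand to 10 short motifs. Those of AP-1 (TGANTCA) and of the cyclic AMP response element, or CRE (its core TGACGT), were joined by the GC box, which reads GGGCGG, and by the core of ETS factors, which reads CGGAAG. The CCAAT box was searched by the letters of its name and the TATA box as TATAAA. Homeodomain factors were given the core TAATTA and forkhead factors the core TGTTTAC. The E-box was searched as CACGTG. The NRF1 core, CATGCGC, was added after the sequences were read. Btc is shown because its promoter held the only called fold, Areg and Egfr as the other ligand and receptor with a promoter peak in all 4 tables, and the Egf stretch because its peak is annotated as an exon yet covers a RefSeq start.
Btc, chr5:91402995-91403244, minus strand: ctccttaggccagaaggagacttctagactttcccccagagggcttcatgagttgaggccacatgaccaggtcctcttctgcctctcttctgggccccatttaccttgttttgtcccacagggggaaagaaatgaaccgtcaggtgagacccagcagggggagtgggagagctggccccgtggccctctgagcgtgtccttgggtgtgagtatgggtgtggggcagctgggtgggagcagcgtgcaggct
Areg, chr5:91139349-91139598, plus strand: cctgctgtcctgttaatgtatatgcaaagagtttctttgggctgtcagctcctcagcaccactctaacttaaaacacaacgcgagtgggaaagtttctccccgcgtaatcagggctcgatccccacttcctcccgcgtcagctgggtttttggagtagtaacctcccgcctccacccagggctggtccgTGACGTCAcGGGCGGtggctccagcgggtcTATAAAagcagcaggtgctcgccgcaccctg
Egfr, chr11:16751953-16752202, plus strand: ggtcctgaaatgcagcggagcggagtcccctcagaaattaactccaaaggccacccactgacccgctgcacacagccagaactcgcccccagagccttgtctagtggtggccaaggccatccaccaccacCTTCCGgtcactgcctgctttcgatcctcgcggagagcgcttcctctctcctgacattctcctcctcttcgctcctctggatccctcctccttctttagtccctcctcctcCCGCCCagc
Egf, start within the gene, chr3:129725087-129725336, minus strand: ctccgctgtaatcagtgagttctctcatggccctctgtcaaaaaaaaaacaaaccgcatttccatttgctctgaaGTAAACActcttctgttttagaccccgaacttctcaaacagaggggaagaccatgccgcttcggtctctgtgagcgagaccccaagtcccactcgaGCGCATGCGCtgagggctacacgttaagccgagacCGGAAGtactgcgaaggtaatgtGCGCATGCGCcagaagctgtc

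The Areg stretch held a CRE core on each strand, which overlap as 1 palindrome from base -61, a GC box from base -52 and a TATA box from base -31, counted back from the start. Over 32851 RefSeq promoter stretches of the same length, a CRE core was present in 6.47%, a GC box in 32.7% and a TATA box in 12.4%. In the Btc stretch none of the 10 motifs was found. It had 4 CpG dinucleotides, against 15 in Areg, 11 in Egfr and a median of 6 over all promoters. The Egfr stretch had a GC box from base -9 and an ETS core from base -120, and ETS cores were present in 13.6% of all promoters. The Egf stretch had NRF1 cores on both strands at 2 places, from bases -79 and -76 and from bases -21 and -18, an ETS core from base -44 and a forkhead core from base -175. NRF1 cores were present in 3.24% of promoters and forkhead cores in 3.17%. Of the 15 genes 10 had a RefSeq promoter entry. A match is a run of letters and says nothing of whether a factor is bound.

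By genotype after PPx, 1 of the 18 member peaks was called, the promoter of betacellulin, in a comparison where 9.98% of all peaks were called (9.89% higher and 0.0839% lower), so the share of 5.56% among the members did not exceed the background. The promoter of Egf had a fold of like size that was not called (0.92, FDR 0.0755, against 0.90 for Btc in the authors' deposited table), and the difference between them was not tested. An unadjusted p under 0.05 was reached by 8 of the 18, or 44.4%, against 33.6% of all peaks. Of these 8 peaks, 4 were among the 9 members listed in 2 tables only, which were called in at most 1 control library there. Their listing depended on calls in KO-labelled libraries taken after PPx, so the higher share is not read as a result. Before PPx 0 of 9 member peaks were called by genotype (0.0128% of all peaks), and 0 had an unadjusted p under 0.05 (3.14% of all peaks). In controls, PPx gave 0 of 9 called (0.0% of all peaks), again with 0 at an unadjusted p under 0.05 (2.53% of all peaks). Centred on the median, 0 of 9 passed there (0.0124% of all peaks). In KO-labelled islets PPx gave 0 of 18 called by the authors' test (7.45% of all peaks), and 7 had an unadjusted p under 0.05, a share of 38.9% against 39.4% of all peaks. Adjusted over all listed peaks, 0 of 18 passed (4.49% of all peaks). Folds above 0 were found for 6 of 9 members by genotype before PPx (48.9% of all peaks), 16 of 18 after it (90.3%), 9 of 9 with PPx in controls (72.8%) and 18 of 18 in KO-labelled islets (97.1%). In the same order, 6 of 9 (48.9% of all peaks), 10 of 18 (49.7%), 5 of 9 (49.7%) and 10 of 18 (49.6%) lay above the median of their table.

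**Figure D1:**
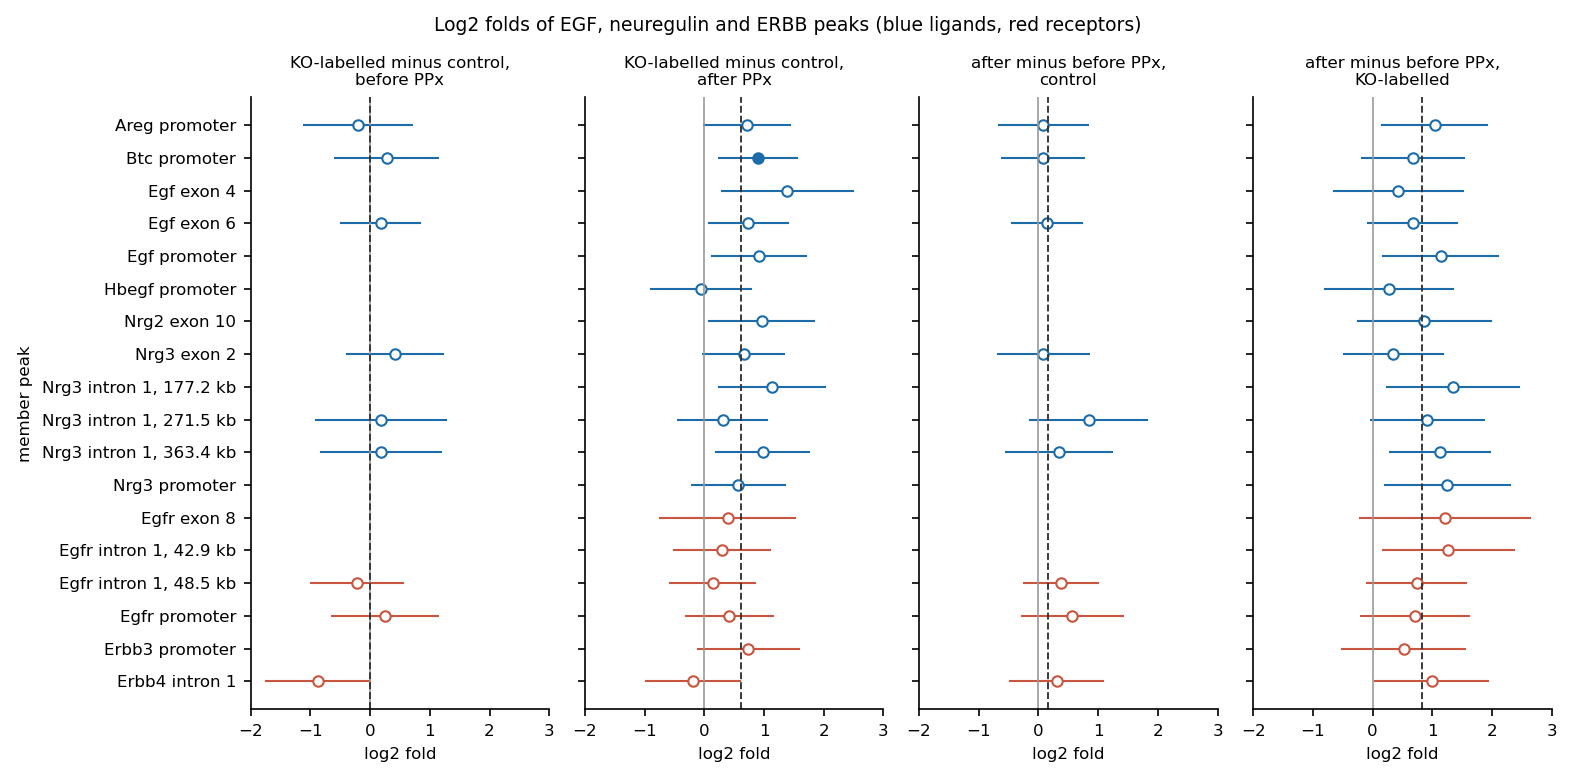
Log2 folds (x axis) of the 18 member peaks (y axis, ligands blue, receptors red) in the 4 comparisons, with 95% intervals from the implied SE; filled points were called at the authors' FDR of 0.05. Solid lines mark 0 and dashed lines the median of all listed peaks, at 0.00, 0.61, 0.16 and 0.83 from left to right, and the Btc promoter after PPx is the only filled point.

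Betacellulin, a ligand of EGFR and ERBB4, had its peak at the promoter (mm10, chromosome 5, 91402590 to 91403190), within 1 kb of the start. After PPx its mean level was 4.29 in controls and 5.19 in KO-labelled islets in the authors' deposited table, and the peak was called in 4 of 4 libraries of both groups. The log2 fold was 0.90 (FDR 0.0487, SE 0.33), or 1.87-fold on the linear scale, which lay at percentile 80.5 of the folds of that table. Adjusted by Benjamini-Hochberg over all listed peaks, the value was 0.0681 and missed the threshold (4.2% of all peaks passed). Relative to the median of 0.61 the fold was 0.29, which was not called (adjusted p 0.996, 0.397% of all peaks). Before PPx the same promoter had means of 4.48 in controls and 4.76 in KO-labelled islets, a log2 fold of 0.28 (FDR 1, SE 0.44) in the authors' deposited table. It was then called in 3 of 4 controls and 3 of 3 KO-labelled samples. The effect of genotype after PPx minus that before it was 0.62 (SE 0.55, 95% interval -0.47 to 1.71, adjusted p 0.504 by the z test), so a difference between the states was not shown.

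Control islets held the Btc promoter at nearly the same mean before PPx, 4.25, and afterwards, 4.32, a log2 fold of 0.07 (SE of peaks of like concentration 0.35, FDR 0.999) in the authors' deposited table. The same control group before PPx stood at 4.48 in the comparison by genotype, so its level depends on the comparison. In KO-labelled islets the means were 4.51 and 5.19, a log2 fold of 0.68 (FDR 0.184, SE 0.44) in the authors' deposited table, which lay below the median of 0.83 over its peaks. The 2 comparisons after PPx share the 4 KO-labelled libraries taken after PPx, and each comparison shares a group with others. Among 6807 peaks listed in all 4 tables, those nearest to the Btc promoter in their 4 folds were sought, leaving out Gm, Rik and Mir symbols. They were promoters of Asf1b at a distance of 0.033 log2 units, Nup54 at 0.037, Efna5 at 0.051, Rbpj at 0.052 and Cndp2 at 0.052. These distances are over group differences that share libraries and are given as a description.

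**Figure D2:**
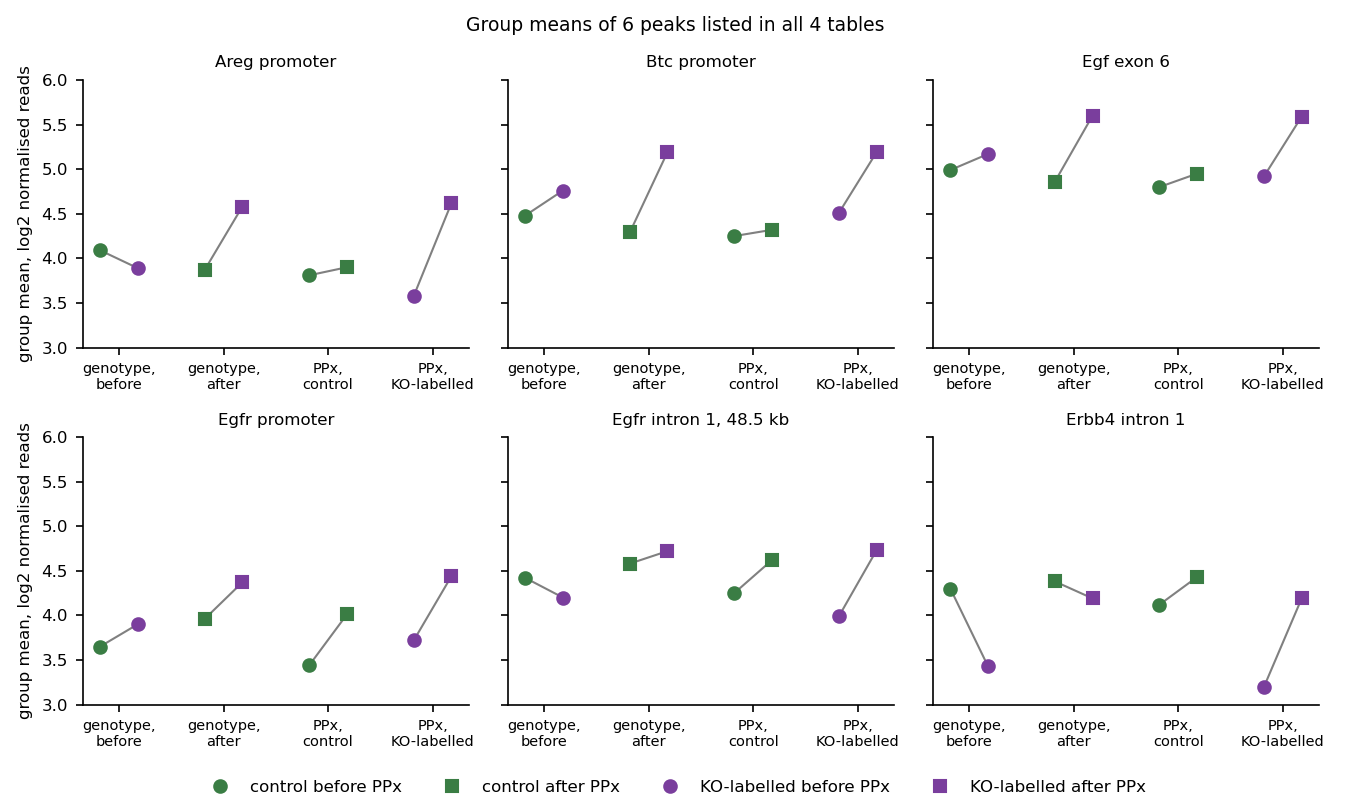
Deposited group means (y axis, normalised reads per peak on a log2 scale) of 6 member peaks listed in all 4 tables. Each joined pair is 1 table (x axis), circles are before and squares after PPx, green is control and purple KO-labelled. The level of a group differs from table to table, so points are compared within a pair only. In Btc the KO-labelled group after PPx is at 5.19 against 4.29 in controls, and in Erbb4 the KO-labelled group before PPx is at 3.43 against 4.30.

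Amphiregulin, a ligand of EGFR, lies in the same ligand gene cluster of chromosome 5 as Ereg, Epgn and Btc, and its promoter peak (mm10, chromosome 5, 91139422 to 91140022) had values for genotype on both sides of 0. Before PPx the means were 4.09 in controls and 3.89 in KO-labelled islets, a log2 fold of -0.20 (FDR 1, SE 0.46) in the authors' deposited table. It was called in 3 of 4 controls and 3 of 3 KO-labelled samples. After PPx the means were 3.87 and 4.58, a log2 fold of 0.72 (SE 0.37, unadjusted p 0.0491, FDR 0.112) in the authors' deposited table, and calls were in 1 of 4 controls and 3 of 4 KO-labelled samples. The difference of these effects, 0.92 (SE 0.59, 95% interval -0.23 to 2.07), was the largest of the 9 member peaks tested and did not pass (adjusted p 0.401 by the z test). Areg in controls stood at 3.81 before PPx and 3.90 afterwards, per the authors' deposited table, and calls went from 3 of 4 to 1 of 4 libraries. In KO-labelled islets the means were 3.58 and 4.62, a log2 fold of 1.04 (FDR 0.0763, SE 0.45) in the authors' deposited table, above its median of 0.83 but not called.

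Egf, the ligand that gives the family its name, had 3 peaks, and the strongest member signal lay inside the gene. The peak annotated to exon 6 of 24 (mm10, chromosome 3, 129724918 to 129725518) had the highest mean concentration of the members in each of the 4 tables, from 4.88 to 5.34. It contained all 250 bases of the upstream stretch printed above, which lies before a RefSeq start about 30 kb into the gene. After PPx its means were 4.86 in controls and 5.60 in KO-labelled islets, a log2 fold of 0.74 (FDR 0.0827, SE 0.34) in the authors' deposited table. Before PPx the fold was 0.18 (FDR 1, SE 0.34) and in controls PPx gave 0.14 (FDR 0.999, SE 0.30), both in the authors' deposited tables. In KO-labelled islets PPx gave 0.67 (FDR 0.145, SE 0.38) in the authors' deposited table. At the promoter of the full-length gene the signal was lower, at 3.02 in controls and 3.95 in KO-labelled islets after PPx, called in 1 of 4 and 4 of 4 samples, a log2 fold of 0.92 (FDR 0.0755, SE 0.40) in the authors' deposited table. That promoter was not listed in the tables of genotype before PPx or of controls. With PPx in KO-labelled islets its means were 2.78 and 3.92, called in 0 of 3 and 4 of 4 samples. The fold was 1.14 (FDR 0.0766, SE 0.49) in the authors' deposited table. The highest fold of the family after PPx, 1.39 (SE 0.56, unadjusted p 0.0132), belonged to a weak peak in exon 4 with means of 2.06 and 3.45 in the authors' deposited table. This peak was called in 0 of 4 controls and 2 of 4 KO-labelled samples, and was listed only with KO-labelled islets taken after PPx. Its deposited FDR was 1, as for 4534 peaks of that table, and its value adjusted over all listed peaks was 0.0824. With PPx in KO-labelled islets the exon 4 peak had a fold of 0.43 (FDR 0.48, SE 0.55) in the authors' deposited table.

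Heparin-binding EGF had 1 peak, at the promoter, with means of 3.56 in controls and 3.49 in KO-labelled islets after PPx, a log2 fold of -0.06 (FDR 0.939, SE 0.43) in the authors' deposited table. It lay at percentile 8.08 of that table, where 90.3% of all folds were above 0. With PPx in KO-labelled islets its fold of 0.28 (FDR 0.64, SE 0.55) in the authors' deposited table was the lowest of the 18 member peaks. The promoter was called in 1 of 4 libraries of each group after PPx.

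Neuregulin 3 had the most peaks of any member, 5, spread over a long gene on chromosome 14. In intron 1, about 363 kb from the RefSeq start (mm10, 39109401 to 39110001), the means after PPx were 3.49 in controls and 4.47 in KO-labelled islets, a log2 fold of 0.98 (FDR 0.0615, SE 0.40) in the authors' deposited table. It was called in 1 of 4 controls and 4 of 4 KO-labelled samples. The same peak in KO-labelled islets stood at 3.34 before and 4.47 after PPx, a log2 fold of 1.13 (FDR 0.0560, SE 0.43) in the authors' deposited table, the lowest FDR of the family in that comparison. Its fold was 0.18 by genotype before PPx and 0.35 with PPx in controls in the authors' deposited tables. Another intron 1 peak, about 177 kb from the start, had a call in 0 of 4 controls and 3 of 4 KO-labelled samples taken after PPx, with means of 2.58 and 3.70 and a log2 fold of 1.13 (SE 0.45, unadjusted p 0.0127, FDR 1) in the authors' deposited table. With PPx in KO-labelled islets that peak had the highest fold of the family, 1.34 (FDR 0.0726, SE 0.56) in the authors' deposited table. It was listed only in comparisons with KO-labelled islets taken after PPx.

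Folds within Nrg3 ranged widely. A further intron 1 peak, about 272 kb from the start, had a fold of only 0.31 by genotype after PPx (FDR 0.486, SE 0.38), and the highest member fold with PPx in controls, 0.84 (FDR 0.999, SE 0.50), in the authors' deposited tables. The peak annotated to exon 2 of a short transcript had the highest member fold by genotype before PPx, 0.42 (FDR 1, SE 0.41), and 0.66 after PPx (FDR 0.123, SE 0.35) in the authors' deposited tables. The Nrg3 promoter was listed only with KO-labelled islets taken after PPx, with a fold by genotype of 0.57 (FDR 0.23, SE 0.40) and with PPx of 1.25 (FDR 0.0748, SE 0.53) in the authors' deposited tables. No test compared the Nrg3 peaks with each other. Neuregulin 2 had 1 peak, in its exon 10 of 10, at 2.71 in controls and 3.67 in KO-labelled islets after PPx, a log2 fold of 0.96 (SE 0.45, unadjusted p 0.0336, FDR 1) in the authors' deposited table. This peak was called in 0 of 4 controls and 2 of 4 KO-labelled samples, and was listed only with KO-labelled islets taken after PPx. With PPx in KO-labelled islets its fold was 0.87 (FDR 0.188, SE 0.57) in the authors' deposited table.

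Ligand and receptor genes were set side by side as a description, and their order changed with the comparison. By genotype after PPx, of 12 ligand peaks 9 lay above the median of the table (49.7% of all peaks). An unadjusted p under 0.05 was reached by 8 of these 12 (33.6% of all peaks). Of 6 receptor peaks 1 lay above the median and 0 had an unadjusted p under 0.05. The median log2 fold was 0.82 for ligand and 0.34 for receptor peaks, against 0.61 for all peaks. By class, that table had a median of 0.71 over promoter peaks and 0.38 over other peaks. The receptor peaks apart from the Egfr and Erbb3 promoters were of the latter class. So were the ligand peaks apart from the promoters of Areg, Btc, Egf, Hbegf and Nrg3. Over the members, the median was 0.72 for promoter peaks and 0.66 for other peaks. Ligand and receptor peaks were not matched by class. Listing itself depended on calls in KO-labelled libraries, since the 9 members absent from the other tables were called in at most 1 of 4 control libraries after PPx. Over the 9 members listed in all 4 tables the medians were 0.73 for 6 ligand peaks and 0.14 for 3 receptor peaks, against 0.66 for all 6807 such peaks. Of those 6 ligand peaks 5 lay above the median of the table, as did 3815 of the 6807, and 4 had an unadjusted p under 0.05. Of those 3 receptor peaks 0 lay above it and 0 had an unadjusted p under 0.05. With PPx in KO-labelled islets the medians were close, 0.895 for 12 ligand and 0.865 for 6 receptor peaks. By genotype before PPx the median was 0.18 for 6 ligand and -0.22 for 3 receptor peaks, a gap in the same direction. With PPx in controls the order was the opposite, 0.11 for ligand and 0.38 for receptor peaks, and 2 of 6 ligand and 3 of 3 receptor peaks lay above the median (49.7% of all peaks). The gap between ligands and receptors was not tested, since peaks of 1 gene are not replicates.

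**Figure D3:**
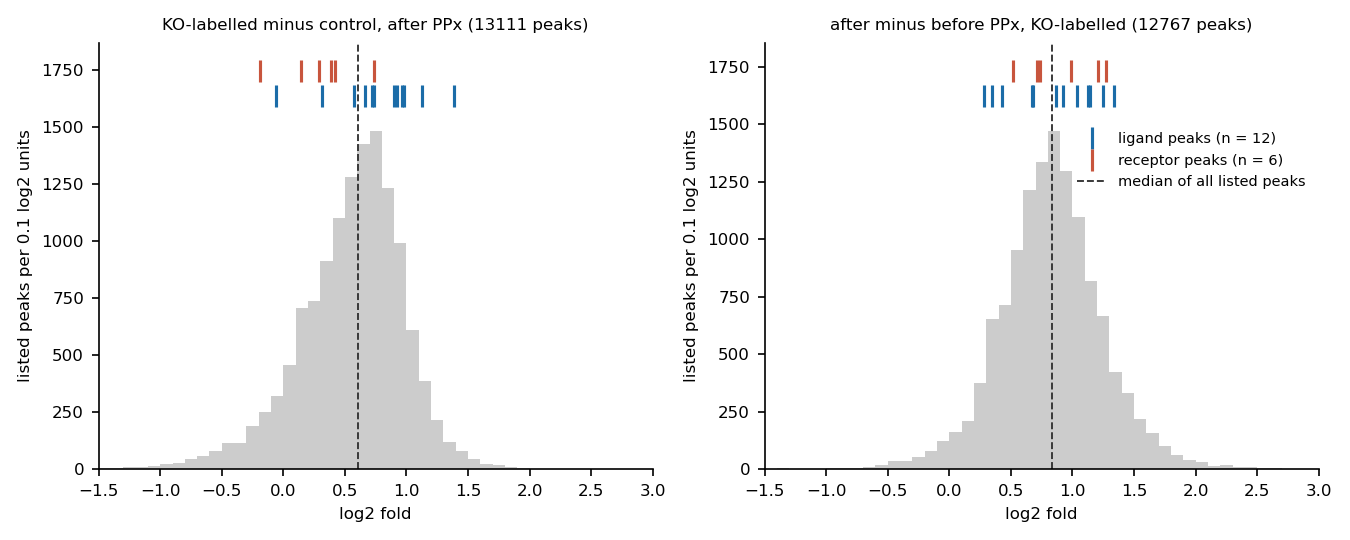
Histograms of log2 folds (x axis) of all listed peaks (y axis, peaks per 0.1 log2 units) for genotype after PPx and for PPx in KO-labelled islets; ticks mark ligand (blue) and receptor (red) peaks and the dashed line the median of all peaks. On the left, 1 of 6 receptor ticks lies above the median of 0.61, against 9 of 12 ligand ticks and 49.7% of all peaks. Promoter peaks had a median of 0.71 there and other peaks 0.38, and both classes occur among the ligand and the receptor ticks.

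Egfr, the receptor of EGF and amphiregulin, had a promoter peak (mm10, chromosome 11, 16752036 to 16752636) whose mean after PPx was 3.96 in controls and 4.37 in KO-labelled islets in the authors' deposited table. The log2 fold of 0.42 (FDR 0.338, SE 0.37) lay 0.19 below the median, and calls were in 2 of 4 and 4 of 4 libraries. Before PPx the promoter stood at 3.65 and 3.90, a log2 fold of 0.25 (FDR 1, SE 0.46) in the authors' deposited table. With PPx it had a fold of 0.57 in controls (FDR 0.999, SE 0.43), at percentile 90.3 of that table, and of 0.71 in KO-labelled islets (FDR 0.187, SE 0.46), in the authors' deposited tables. A stronger Egfr peak lay in intron 1, about 48.5 kb from the start (16800435 to 16801035), and was called in every library of all 4 groups. Its means by genotype were 4.42 in controls and 4.20 in KO-labelled islets before PPx, and 4.58 and 4.72 after it, with log2 folds of -0.22 (FDR 1, SE 0.39) and 0.14 (FDR 0.749, SE 0.36) in the authors' deposited tables. With PPx its folds were 0.38 in controls (FDR 0.999, SE 0.32) and 0.74 in KO-labelled islets (FDR 0.143, SE 0.42) in the authors' deposited tables.

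A pair of weak Egfr peaks was listed only with KO-labelled islets taken after PPx. The intron 1 peak about 42.9 kb from the start had means of 3.30 in controls and 3.59 in KO-labelled islets after PPx, a log2 fold of 0.29 (FDR 1, SE 0.41) in the authors' deposited table. With PPx in KO-labelled islets it went from 2.32 to 3.59, a fold of 1.27 (SE 0.56, unadjusted p 0.0238, FDR 1) in the authors' deposited table. The exon 8 peak had folds of 0.39 by genotype after PPx (SE 0.58) and 1.21 with PPx in KO-labelled islets (SE 0.73), both at an FDR of 1 in the authors' deposited tables. Folds of weak peaks carried the larger errors.

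Erbb4, a receptor of neuregulins and betacellulin, had the lowest member fold of both genotype comparisons, at a peak in intron 1 about 215 kb from the RefSeq start (mm10, chromosome 1, 68892488 to 68893088). Before PPx the means were 4.30 in controls and 3.43 in KO-labelled islets, with calls in 4 of 4 controls but 1 of 3 KO-labelled samples, per the authors' deposited table. The log2 fold of -0.87 (SE 0.45, unadjusted p 0.0506, FDR 1) lay at percentile 3.58 of that table and was not called. After PPx the means were 4.38 and 4.19, a log2 fold of -0.19 (FDR 0.692, SE 0.40) in the authors' deposited table. It was then called in 4 of 4 controls and 3 of 4 KO-labelled samples. That value lay at percentile 5.48, and the difference between the states was 0.68 (SE 0.60, 95% interval -0.49 to 1.85, adjusted p 0.499 by the z test). In KO-labelled islets the peak stood at 3.20 before and 4.19 after PPx, a fold of 0.99 (FDR 0.102, SE 0.48), and in controls at 4.12 and 4.43, a fold of 0.31 (FDR 0.999, SE 0.40), in the authors' deposited tables. Erbb3, the neuregulin receptor with a weak kinase, had 1 weak peak, called in 0 of 4 controls and 2 of 4 KO-labelled samples taken after PPx, with a fold of 0.74 (FDR 1, SE 0.44) in the authors' deposited table. The tables call it a promoter, yet it lay 5.74 kb from the nearer end of the RefSeq gene.

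By mean concentration over both groups after PPx, the order of the promoter peaks was Btc at 4.81, Areg at 4.27, Egfr at 4.18, Nrg3 at 3.62, Egf at 3.56, Hbegf at 3.53 and Erbb3 at 3.31 in the authors' deposited table. Whether neighbours in this order differ beyond the spread of libraries is not analysed here. Btc lay at percentile 82.8 of all listed peaks of that table and Areg at 68.7. Among its promoter peaks alone, Btc lay at percentile 76.05 and Areg at 58.3.

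The test of whether the effect of genotype differed between the states covered 7504 matched peaks, of which 0.0267% passed. Of 9 member peaks 0 passed, and 0 had an unadjusted p under 0.05. All 9 differences were above 0, as were 92.2% of all matched peaks, and with each table centred on its median 4 of 9 were above 0, against 53.0% of all matched peaks.

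In a list of pathway genes around the receptors, the share of peaks called at the authors' FDR was near that of all peaks. After PPx 5 of 42 peaks, at 27 of the 40 genes of a list of shedding proteases, adaptors, kinases and feedback genes, rose with the KO label and 0 fell, or 11.9% against 9.89% of all peaks called higher, and their median fold was 0.68 against 0.61. By the authors' deposited table, the promoter of Dusp4, a MAP kinase phosphatase, rose by 1.44 (FDR 0.0187), that of Spry2, a feedback inhibitor of receptor signalling, by 1.06 (FDR 0.0265) and that of Etv5, an ETS factor induced by the pathway, by 1.00 (FDR 0.0308). Pik3ca, the catalytic subunit of PI3 kinase, rose by 1.17 (FDR 0.0268) and Sos1, the exchange factor that activates RAS, by 1.01 (FDR 0.0496) in the authors' deposited table. By group, 3 of 17 peaks of feedback genes and targets, 1 of 9 of the kinase relay, 1 of 14 of adaptors and receptor turnover and 0 of 2 of ligand shedding rose. Centred on the median of the table, 0 of 42 passed (0.397% of all peaks), and 18 of 42 had an unadjusted p under 0.05 as deposited (33.6% of all peaks). Adjusted over all listed peaks 6 of 42 passed, a larger share than the 4.2% of all peaks, and this excess was not tested. That adjustment left out Sos1 and added the promoters of Spry1 at 1.58 (adjusted p 0.0404) and Spred1 at 1.41 (adjusted p 0.0430), whose deposited FDR was 1. Both were added after their values were seen.

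**Figure D4:**
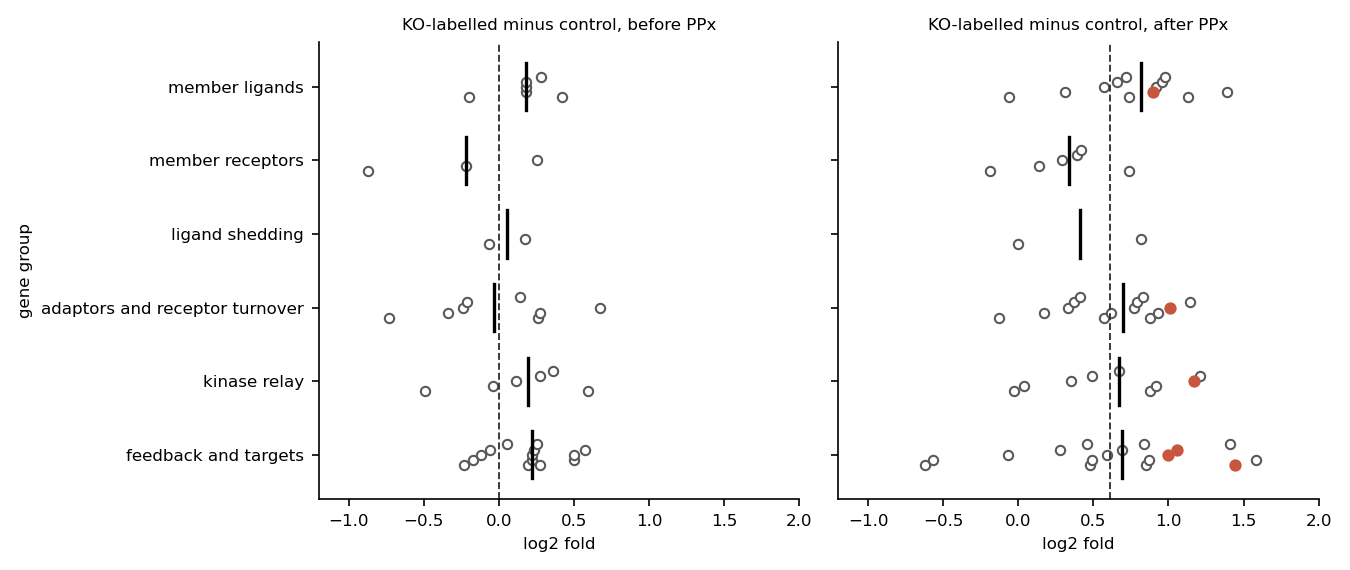
Log2 folds by genotype (x axis) before and after PPx for member ligands and receptors and for 4 groups of pathway genes (y axis); each point is a peak, filled where called at the authors' FDR of 0.05, black bars are medians and the dashed line the median of all peaks. Filled points are seen only on the right, 1 among member ligands and 5 among 42 pathway peaks.

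Before PPx 0 of 30 pathway peaks were called by genotype in the authors' deposited table (0.0128% of all peaks), 0 had an unadjusted p under 0.05 (3.14% of all peaks), and the median was 0.18 against 0.00. With PPx in controls 0 of 30 were called (0.0% of all peaks), 2 had an unadjusted p under 0.05 (2.53% of all peaks), and the median was 0.37 against 0.16. In KO-labelled islets 3 of 41 rose with PPx and 0 fell, or 7.32% against 7.45% of all peaks, with a median of 0.91 against 0.83. They were the promoter of Adam17, the protease that sheds amphiregulin and other ligands, at 1.17 (FDR 0.0426), the promoter of Spry2 at 1.01 (FDR 0.0485) and a distal peak of Dusp4 at 1.29 (FDR 0.0365) in the authors' deposited table. Adjusted over all listed peaks 1 of 41 passed, the Dusp4 peak (4.49% of all peaks), and centred on the median 0 passed (0.0% of all peaks). An unadjusted p under 0.05 as deposited was reached by 18 of 41 (39.4% of all peaks).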

How the data were processed

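The 15 ATAC-seq libraries were processed on mm10, and the submitters' processing notes name BWA, cutadapt, MACS, ChIPseeker and DiffBind. The authors deposited 4 tables of peaks with a log2 concentration per group, a log2 fold, a p-value and an FDR. These tables also hold the number of libraries of each group that called the peak, as read from the file headers. Scaling, depth per library and the authors' test are not given in the sources used here. Groups came from sample titles, and nothing says whether the samples of a group are separate mice or pools, so p-values measure only the spread between these samples, which may be technical.

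Repeated rows were dropped (1197, 5281, 1337 and 4588 in the order genotype before, genotype after, PPx in controls, PPx in KO-labelled), as was 1 blank row. Where a fold was smaller than 0.1 or its p at least 0.95, the SE was the median over peaks of like concentration (40 bins). Median SEs were 0.43, 0.40, 0.38 and 0.49. Genotype effects before and after PPx were compared by a two-sided z test over peaks overlapping by at least 1 bp, with Benjamini-Hochberg adjustment. Scripts used Python 3.11.15, pandas 2.3.3, scipy 1.17.1 and statsmodels 0.14.6 and were tested on simulated data. The simulated p-values came from the same normal formula as the implied SE, so the form of the authors' test was not checked. Described singly were all peaks of Areg, Btc and Egfr, and member peaks called or with an unadjusted p under 0.05 in any table. So were the highest and lowest member of each table and called pathway peaks, though not every value of each is given. The Erbb3 peak was added after its values were seen. Members and lists were chosen with earlier results of these data known. Alternatives were other FDR limits, adjustment over all peaks, centring, a concentration limit and a wider overlap. Sequences are from RefSeq, GRCm38.p6.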

Additional observations from a re-analysis of the deposited data

How the results depend on the processing

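The count of called member peaks for genotype after PPx, 1 as deposited, was 0 when adjusted over all listed peaks, 0 at an FDR of 0.01, 0 centred on the median of the table, and 4 at an FDR of 0.1. It was also 0 when the deposited p was adjusted anew over peaks of mean concentration of 3 or more. Btc, at 4.81, was among those peaks, and its adjusted p of 0.0617 was lower than the 0.0681 over all peaks, so the change from the call lies in the new adjustment. For PPx in KO-labelled islets it was 0, and 5 at an FDR of 0.1. No other count of called member peaks changed, also with repeated rows kept or a wider overlap required between peaks. The Btc fold after PPx was 0.29 centred and 0.14 less the median of its class (promoter or other) at like concentration, neither called. Of 54 member folds over the 4 tables, 18 turned direction when centred and 17 less the class median, given here in that order. By genotype after PPx they were -0.19 and -0.27 at the Egfr promoter, -0.32 and -0.02 at its 42.9 kb and -0.47 and -0.31 at its 48.5 kb intron peak, -0.22 centred at exon 8, -0.30 and -0.12 at the Nrg3 peak 272 kb from the start and -0.04 and -0.07 at the Nrg3 promoter. With PPx in controls they were -0.08 and -0.03 at Areg, -0.09 and -0.11 at Btc, -0.02 and -0.11 at Egf exon 6 and -0.08 and -0.12 at Nrg3 exon 2. With PPx in KO-labelled islets they were -0.15 and -0.19 at Btc, -0.12 and -0.18 at the Egfr promoter, -0.09 and -0.08 at its 48.5 kb peak, -0.55 and -0.61 at Hbegf, -0.16 and -0.035 at Egf exon 6, -0.40 and -0.31 at Egf exon 4, -0.31 and -0.37 at Erbb3 and -0.48 and -0.47 at Nrg3 exon 2. These are values relative to a shift of the whole table, and the cause of that shift was not tested. No paired analysis was possible because the columns are group means that carry no replicate numbers, and for the same reason no value could be recomputed without a single library.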

Other observations

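Peaks inside the RefSeq span of Nrg1 (mm10, chromosome 8, 31807452 to 32891609) carried other symbols in the authors' deposited tables and were annotated as distal intergenic, so the rule by symbol did not take them. They were looked at after the member values were seen. Before PPx, a peak named Gm22140 (32293009 to 32293609) had means of 3.72 in controls and 4.75 in KO-labelled islets, a log2 fold of 1.03 (SE implied by p 0.42, unadjusted p 0.0133, FDR 1) in the authors' deposited table. It was called in 1 of 4 controls and 3 of 3 KO-labelled samples. A second peak of that symbol nearby (32304885 to 32305485) had the opposite sign, with means of 3.49 and 1.97, a log2 fold of -1.53 (SE 0.67, unadjusted p 0.0232, FDR 1) in the authors' deposited table. It was called in 2 of 4 controls and 0 of 3 KO-labelled samples. After PPx the folds of the same peaks were 0.48 (SE 0.38, FDR 0.29) and -0.38 (SE 0.51, FDR 1) in the authors' deposited table. Neither was called in any comparison that listed it. Another peak in the span, named Gm3985 (32883653 to 32884253), had a fold of 1.02 by genotype after PPx (SE 0.49, unadjusted p 0.038, FDR 1) in the authors' deposited table. No other member gene held a listed peak of another symbol wholly inside its RefSeq span.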
